A study of Mus musculus with 4 samples.

Results

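Apolipoproteins are the proteins that coat the lipid particles of blood plasma, and the liver makes most of them. Apoa1, Apoa2, Apoa4, Apoa5, Apob, Apoc1, Apoc2, Apoc3, Apoe and Apom were followed here, chosen by gene symbol and not by any measured value. Earlier results of these data were known when they were chosen. All 10 symbols were found, each on 1 of the 32285 genes of the count matrices. They are Ensembl genes ENSMUSG00000032083 (Apoa1), ENSMUSG00000005681 (Apoa2), ENSMUSG00000032080 (Apoa4), ENSMUSG00000032079 (Apoa5), ENSMUSG00000020609 (Apob), ENSMUSG00000040564 (Apoc1), ENSMUSG00000002992 (Apoc2), ENSMUSG00000032081 (Apoc3), ENSMUSG00000002985 (Apoe) and ENSMUSG00000024391 (Apom).

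The study mapped RNA in liver sections from mouse models of hepatocellular carcinoma with Visium, an assay that captures the RNA of frozen tissue on a grid of barcoded spots and counts molecules by unique molecular identifiers (UMIs). STAM is a metabolic model with fatty, inflamed liver and type I diabetes and gave the sections STAM16w and STAM20w. DEN+CCl4 combines diethylnitrosamine, which damages DNA, with carbon tetrachloride, which scars the liver, and gave DEN22w and DEN30w. Each model and time had 1 section, so the model, the time and the animal cannot be told apart. The number in each name was read as weeks: 16, 20, 22 and 30. The labels leave out whether weeks count age or time since treatment, and the strain, sex and genotype of the mice. No untreated liver was analysed here. The labels do not say that the sections came from separate animals, and p-values measure only the spread between these 4 sections.

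The sections held 2080, 2833, 2746 and 2968 spots in the order STAM16w, STAM20w, DEN22w and DEN30w, an order kept for every series of 4 values. They held between 20700642 and 40008457 UMIs, with medians of 7302.5 to 12761 UMIs per spot. The 10 genes took 6.91%, 7.45%, 8.44% and 6.58% of all UMIs. Markers of hepatocytes were present throughout, with all 10 of 10 detected in each section. Fabp2, Fabp6, Vil1, Muc2 and Cdx2, markers of the intestine, which also makes Apoa4 and Apob, had a UMI for 3 of the 5 genes in each STAM section and for 4 of the 5 in each DEN+CCl4 section, and 1 gene held nearly all of their UMIs. Altogether 1136 spot barcodes occurred in all 4 sections; Visium barcodes name positions of the array and do not mark shared cells.

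Lipoproteins carry triglyceride and cholesterol through the blood. Apob is the structural protein of very-low-density lipoprotein, which hepatocytes load with triglyceride and secrete, and Apoa1 and Apoa2 are the main proteins of high-density lipoprotein, which returns cholesterol to the liver. The small proteins of the C group and Apoa5 tune the clearance of triglyceride by lipoprotein lipase: Apoc2 activates the enzyme, Apoc3 slows clearance, and Apoa5 promotes it. Apoe is a ligand of receptors that take up remnant particles and is made by macrophages as well as hepatocytes, Apoa4 accompanies triglyceride-rich particles, Apoc1 exchanges between particles and slows their uptake, and Apom carries sphingosine 1-phosphate on high-density lipoprotein.

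The members lie in small clusters of the genome. In RefSeq's annotation of GRCm38.p6, the assembly of mm10, Apoa1 (chr9:46228630-46230469), Apoc3 (chr9:46233050-46235636), Apoa4 (chr9:46240844-46243458) and Apoa5 (chr9:46268608-46271921) are neighbours, as are Apoc2 (chr7:19671579-19677941), Apoc1 (chr7:19689480-19692659) and Apoe (chr7:19696244-19701310). Apob (chr12:7977629-8016839), Apoa2 (chr1:171221564-171226379) and Apom (chr17:35128997-35131801) stand alone. A read-through gene of that annotation, Gm44805 (chr7:19671579-19681460), overlaps Apoc2, and how reads in the overlap were assigned is not given in the sources used here.

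RefSeq promoter windows, 250 bases before to 50 bases after a start site, matched 8 of the 10 symbols. The windows of Apoa4 and Apoc2 are shown because these genes differed most between the STAM sections and between patches of spots, that of Apoa5 because it fell towards the central vein in all 4 sections, and that of Apoa1 because its gradient ran in opposite directions in the models. Capitals mark letters of the nuclear receptor patterns CAAAGNNCA and DR1 (a direct repeat with a single base between its copies) and of the TATA box TATAAA, searched on both strands with N as any base. The windows lie at chr9:46240594-46240893 on the plus strand (Apoa4), chr7:19677892-19678191 on the minus strand (Apoc2), chr9:46268358-46268657 on the plus strand (Apoa5) and chr9:46228380-46228679 on the plus strand (Apoa1), all in GRCm38.p6.
Apoa4: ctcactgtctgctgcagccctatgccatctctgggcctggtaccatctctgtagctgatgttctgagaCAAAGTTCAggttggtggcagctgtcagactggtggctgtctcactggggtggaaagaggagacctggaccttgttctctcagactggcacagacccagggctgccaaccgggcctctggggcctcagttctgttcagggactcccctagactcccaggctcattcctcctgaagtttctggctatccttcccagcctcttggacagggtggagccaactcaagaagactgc
Apoc2: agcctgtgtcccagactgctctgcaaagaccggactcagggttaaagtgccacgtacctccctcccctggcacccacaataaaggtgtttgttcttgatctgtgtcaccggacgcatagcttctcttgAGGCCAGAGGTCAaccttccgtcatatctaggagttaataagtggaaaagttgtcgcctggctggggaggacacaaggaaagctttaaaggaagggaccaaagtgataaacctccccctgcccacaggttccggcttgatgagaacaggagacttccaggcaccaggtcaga
Apoa5: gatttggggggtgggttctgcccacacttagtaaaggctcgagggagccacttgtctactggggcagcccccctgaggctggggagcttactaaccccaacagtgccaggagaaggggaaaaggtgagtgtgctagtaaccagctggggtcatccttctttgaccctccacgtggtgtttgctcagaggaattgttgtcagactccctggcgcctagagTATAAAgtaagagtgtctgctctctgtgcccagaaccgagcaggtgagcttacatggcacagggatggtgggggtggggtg
Apoa1: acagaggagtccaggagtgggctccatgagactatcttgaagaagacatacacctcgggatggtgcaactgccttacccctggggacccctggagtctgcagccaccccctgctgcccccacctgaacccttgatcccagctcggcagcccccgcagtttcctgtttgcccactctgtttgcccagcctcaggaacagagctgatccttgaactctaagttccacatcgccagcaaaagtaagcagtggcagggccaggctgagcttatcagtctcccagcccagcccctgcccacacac
Apoa4 holds CAAAGTTCA at base -182 from its start site, and Apoc2 holds a match to DR1, AGGCCAGAGGTCA, at base -122. Apob was the other member whose window matched CAAAGNNCA, at base -103 and on the opposite strand. CAAAGNNCA occurs in 6.36% of the 32851 promoter windows of the table and DR1 in 0.381%. TATAAA occurs in 13.6% of windows and stands at base -31 of Apoa5; windows of Apoa2, Apob and Apoe also hold it. TGACG, found in 20.8% of windows, was matched in Apoa2 and, on the opposite strand, in Apoc2; CCGCCC, found in 35.7%, was matched in no window of these 8 genes. None of these patterns overlapped another in the 4 windows shown, and the window of Apoa1 holds none of them.

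The proteins of high-density lipoprotein were compared between sections first. Levels are given in CPM, which scales each gene's UMIs to a section total of 1e+06 and suits a comparison of a gene between sections and not of genes with each other. Apoa1 stood at 4800.2, 5208, 5542 and 3837 CPM, and Apoa2 at 23284, 24504, 22331 and 15343 CPM. Both were lowest in DEN30w, and the models overlapped for Apoa1 but not for Apoa2. Apom stood at 215, 281, 249 and 249 CPM, and its models overlapped.

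Among the genes of triglyceride-rich particles, Apoa4 differed most between sections. It stood at 1356, 2371, 794 and 688 CPM, so both STAM sections lay above both DEN+CCl4 sections and STAM20w lay highest. Apob ran the other way, at 1088, 933, 1717 and 1676 CPM, with both DEN+CCl4 sections above both STAM sections. Apoa5 stood at 1859, 1624, 2097 and 1604 CPM, and its models overlapped.

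The C group divided. Apoc2, the activator of lipoprotein lipase, stood at 1346, 2348, 1502 and 1181 CPM, with STAM20w above the rest and the models overlapping. Apoc3, which slows triglyceride clearance, stood at 5677, 5176, 8774 and 7247 CPM, higher in both DEN+CCl4 sections. Apoc1 stood at 14284, 14228, 18283 and 13884 CPM, with DEN22w highest and the models overlapping. Apoe, the ligand for remnant uptake, stood at 15188, 17842.5, 23157 and 20122 CPM, again with both DEN+CCl4 sections above both STAM sections.

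**Figure D1:**
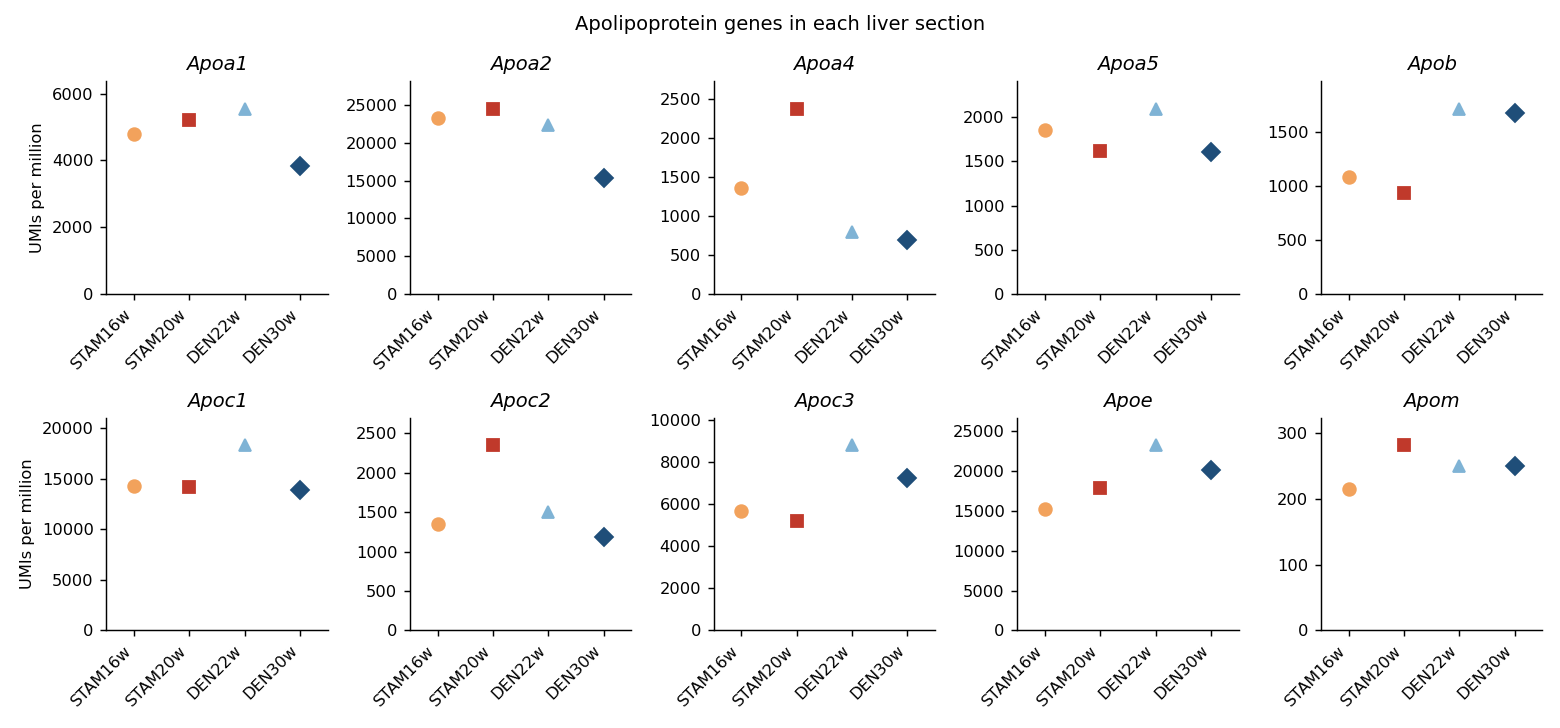
Level of each apolipoprotein gene in CPM (vertical axes, linear from 0, scaled per gene) in the 4 sections (horizontal axis); each point is 1 section, and counting intervals are smaller than the symbols. Apoa4 is highest in STAM20w at 2371 CPM, while Apob, Apoc3 and Apoe are higher in both DEN+CCl4 sections.

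Whether the models differed was asked with 2 sections against 2, over all kept spots. These included 3 patches of STAM20w, described below, outside which Apoa4 stood at 1975 CPM in that section. Apoa4 averaged 1864 ± 718 CPM in STAM and 741 ± 75.05 in DEN+CCl4 (SD, n = 2 each), the widest gap by fold among the members, and Apob averaged 1010.5 ± 110 and 1696 ± 28.4. Apoc3 averaged 5426 ± 354 against 8011 ± 1079.6, and Apoe 16515 ± 1877 against 21639.5 ± 2146. No member passed edgeR's quasi-likelihood test at an adjusted p of 0.05, where 0.437% of the 14417 genes tested did. With the spots of the patches left out, 0 members passed as well. At an unadjusted p under 0.05 stood 3305 of the 14417 genes and 1 of the 10 members, Apoa4. DESeq2 called 1517 genes, of which Apoa4 was the only member. For the members, 1 of 10 is no larger a share than 3305 or 1517 of 14417 genes.

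Apoa4 had a log2 fold change of 1.48 (SE 0.38), STAM over DEN+CCl4, with an adjusted p of 0.113 by edgeR's quasi-likelihood test. Its adjusted p ran from 0.000301 with DESeq2 to 0.498 without DEN30w, a fit that leaves 1 section in DEN+CCl4 and assumes it to vary like STAM, and its sign was positive in 13 of 13 alternatives. Apob had a log2 fold change of -0.57 (SE 0.33, adjusted p = 0.346, edgeR), Apoc2 of 0.60 (SE 0.39), Apoa2 of 0.50 (SE 0.50), Apoc3 of -0.39 (SE 0.41) and Apoe of -0.23 (SE 0.46). The mean log2 scaling factors of the models differed by 0.17, which raises fitted values relative to CPM by about that much, and under library totals alone Apoa5 and Apom turned from a positive to a negative sign. In 5 of the 10 members, Apoa2, Apoa4, Apob, Apoc3 and Apoe, the sections of the models did not overlap, against 57.7% of all genes tested.

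The median log2 fold change of the 10 members was 0.12, and that of all genes tested was -0.0016. In the same comparison 0 of 10 hepatocyte markers had a positive log2 fold change, with a median of -0.68, and 2 of 6 lipid droplet genes were called higher in STAM, with a median of 1.78. The part of these in the members' values was not tested; in a section, fewer cells of a type and less RNA per cell cannot be told apart. The other genes of lipoprotein biology gave no call either. Of 9 tested further apolipoproteins, 16 genes of particle assembly, 16 of remodelling in plasma, 10 receptors and 21 regulators, 0 were called, with medians of -0.18, -0.04, -0.20, -0.20 and -0.20.

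Between the times of a model 1 section stood on each side, so ratios carry a counting interval and no test. From STAM16w to STAM20w the level of Apoa4 went from 1356 to 2371 CPM, a log2 ratio of 0.81 (95% counting interval 0.79 to 0.83). Apoc2 went from 1346 to 2348 CPM, a log2 ratio of 0.80 (0.78 to 0.82). The other 8 members lay between 0.857-fold (Apob) and 1.31-fold (Apom), where the median log2 ratio of genes at 50 CPM or more was 0.19. Of these genes, 88.5% lay below Apoa4 and 88.4% below Apoc2. The summed hepatocyte markers went from 43770 to 56558 CPM, and the most abundant of them from 11853 to 23308 CPM. The part of these in the members' ratios was not tested. Outside the 3 patches of STAM20w that other genes mark, the log2 ratios were 0.54 for Apoa4 and 0.52 for Apoc2.

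From DEN22w to DEN30w no member had a higher level in the later section, although the counting interval of Apom spanned 0 (log2 ratio -0.049 to 0.048). Apoa1 went from 5542 to 3837 CPM, a ratio of 0.692, and Apoa2 from 22331 to 15343 CPM, a ratio of 0.687. Apoc1, Apoa5, Apoc2 and Apoc3 lay between 0.759 and 0.826, Apoa4 and Apoe at 0.866 and 0.869, and Apob and Apom at 0.977 and 0.9996. The summed hepatocyte markers went from 98479.5 to 86934 CPM, and the most abundant of them from 35552 to 25529 CPM. The part of these in the members' ratios was not tested. The median log2 ratio of all genes at 50 CPM or more was 0.018, and 4.75%, 4.61% and 47.1% of these genes lay below Apoa1, Apoa2 and Apom. In neither model did a member reach a 2-fold ratio, where 7.42% of such genes were higher and 3.71% lower by 2-fold in STAM, and 2.58% and 1.51% in DEN+CCl4.

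Hepatocytes differ in gene use along the axis from the portal vein to the central vein. Spots were ordered within each section by the UMIs of 8 central markers, such as Glul and Cyp2e1, relative to 12 portal markers, such as Cyp2f2 and Hal, leaving out the patches of STAM20w, and divided into 3 equal groups. Apoa5, Apoc2, Apoc3, Apoa4 and Apob fell from the portal to the central group, 5 of the 10 members, where 5.67% of the 12569 genes tested were lower. The members' median log2 fold change was -0.25, against 0.0045 for all genes tested.

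Apoa5, which promotes triglyceride clearance, had the lowest fitted value over the 4 sections, although in STAM16w the log2 ratio was -0.77 for Apoc2 and -0.47 for Apoc3 against -0.43 for Apoa5. It stood at 1584 CPM in central against 2135 in portal spots of STAM16w, 1386 against 2119.8 in STAM20w, 1601 against 2469 in DEN22w and 1279 against 1950.4 in DEN30w. Central spots were lower in all 4 sections, and the fitted log2 fold change was -0.69 (SE 0.08, adjusted p = 0.000177, edgeR). Over 10 equal groups of spots, its level went from 2249 CPM in the most portal to 1412 in the most central group in STAM16w, from 2317 to 1167 in STAM20w, from 2628 to 1483 in DEN22w and from 2045 to 1179 in DEN30w.

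Apoc3, the brake on clearance, stood at 4801 against 6664 CPM, 4564 against 6442, 7646 against 9603 and 6492 against 8017, central against portal. It was lower in the central spots of every section, by a fitted log2 of -0.52 (SE 0.09, adjusted p = 0.00153, edgeR). Apoc2, the activator, stood at 1026 against 1753, 1550.2 against 2365, 1250.2 against 1699.9 and 1173 against 1234 CPM. Its gradient was widest in STAM16w and narrowest in DEN30w, with a fitted log2 fold change of -0.59 (SE 0.09, adjusted p = 0.00108, edgeR).

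Apoa4 and Apob had shallower gradients whose calls were less stable. Apoa4 had log2 ratios of -0.41, -0.08, -0.25 and -0.13 and Apob of -0.11, -0.26, -0.21 and -0.06, central over portal. Both were lower in central spots of all 4 sections, with fitted log2 fold changes of -0.33 (SE 0.08, adjusted p = 0.0143) and -0.28 (SE 0.08, adjusted p = 0.0321) by edgeR's quasi-likelihood test. With library totals in place of scaling factors their adjusted p were 0.0646 and 0.118. With either DEN22w or DEN30w left out, 3 members were called: without DEN22w the adjusted p of Apoa4 and Apob were 0.0993 and 0.176 and without DEN30w 0.0819 and 0.143, and without STAM20w Apob had an adjusted p of 0.082.

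Apoe, Apoa2, Apoc1 and Apom had no zonal call. Apoe had log2 ratios of 0.01, 0.14, 0.06 and 0.10, central over portal, while its fitted value was -0.04 (SE 0.10, adjusted p = 0.847, edgeR); the scaling factors moved fitted values by about -0.12 relative to CPM, and with library totals alone Apoe had 0.078. Apom had log2 ratios of -0.08, -0.19, 0.24 and 0.11 and a fitted value over the 4 sections of -0.10 (SE 0.07), which was 0.021 with library totals alone. Beside the members, 10 of 12 macrophage markers and 8 of 9 collagen genes were called higher in central spots and 6 of 10 hepatocyte markers lower; Alb had a fitted log2 fold change of -0.34 (SE 0.12, adjusted p = 0.0864, edgeR) that was not called. Spots can hold several cell types, and the part of these markers in the gradients was not tested.

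Other lipoprotein genes showed calls in both directions along the same axis. Of 9 further apolipoproteins 4 fell towards the central group, among them Apon (log2 fold change -0.58) and Apof (-0.36), 0 rose, and the list's median was -0.15. Of 16 remodelling genes 3 rose and 1 fell (median -0.03): lipoprotein lipase, Lpl, by 0.74, Pon1 by 0.54, and the phospholipid transfer protein Pltp by 0.52 rose, and Lcat, which esterifies cholesterol, fell by 0.25 on the log2 scale. Of 10 receptors 3 rose, among them Trem2, a receptor of macrophages (1.14), and 2 fell, among them Sdc1, a heparan sulfate proteoglycan that binds remnants (-0.55), around a median of 0.05. Among 21 regulators 5 fell, led by Srebf1, the activator of fat synthesis (-0.62), and Nr0b2 (-0.54), with a median of -0.16, and of 16 assembly genes 1 rose, Apobec1, the enzyme that edits Apob RNA (0.58), with a median of -0.05.

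**Figure D2:**
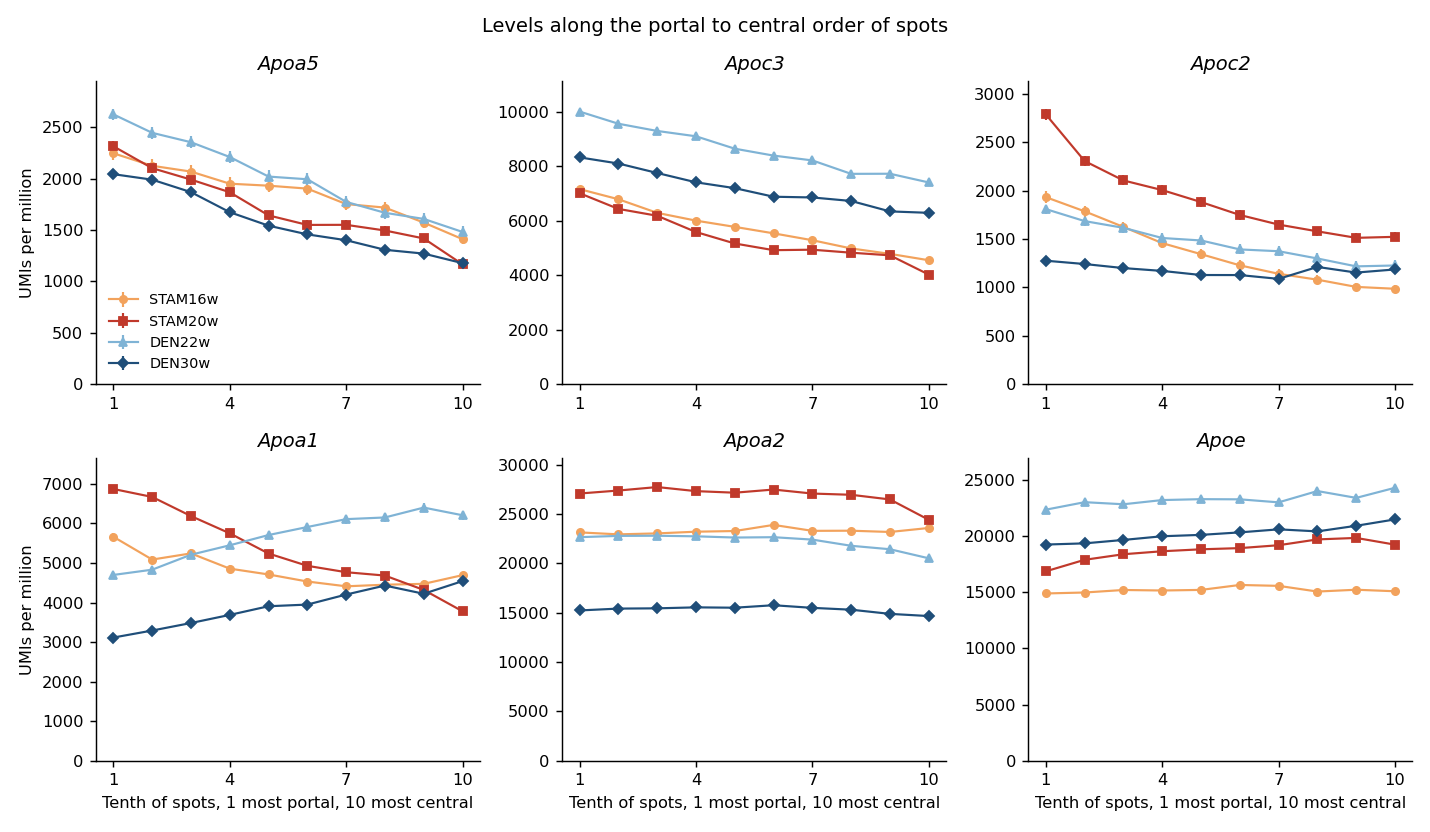
Level in CPM (vertical axes, linear from 0) of 6 members in 10 equal groups of spots ordered from most portal (1) to most central (10); each line is 1 section and bars are 95% Poisson intervals for counting error. Apoa5 and Apoc3 decline towards the central end in all 4 sections, and Apoa1 declines in STAM20w and climbs in DEN22w and DEN30w.

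Apoa1, the main protein of high-density lipoprotein, was the only member whose gradient was called different between the models. In central against portal spots it stood at 4523 against 5291 CPM in STAM16w and 4305 against 6492 in STAM20w. In DEN22w it stood at 6229 against 4938 and in DEN30w at 4379 against 3322 CPM. Central spots were therefore lower in both STAM sections, by log2 ratios of -0.23 and -0.59, and higher in both DEN+CCl4 sections, by 0.34 and 0.40.

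The interaction of zone and model for Apoa1 was -0.65 on the log2 scale (SE 0.14, adjusted p = 0.0341, edgeR's quasi-likelihood test), in a test that called 0.525% of genes lower and 0.891% in either direction. The call depended on the setting. With library totals alone the interaction was -0.78 (adjusted p = 0.00762), and the adjusted p was 0.0423 with DESeq2. It was 0.0587 with the RLE factors of edgeR, 0.062 with zones drawn within 5 bands of depth, 0.0737 with each marker weighted equally and 0.129 with the patches kept. Leaving out a section leaves 1 section in its model, which is then assumed to vary like the other model. Without STAM16w the adjusted p was 5.35e-07, without STAM20w 0.0615, without DEN22w 0.221 and without DEN30w 0.301.

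Across 10 groups Apoa1 went from 5662 CPM in the most portal to 4692 in the most central group in STAM16w, from 6870.2 to 3779 in STAM20w, from 4698 to 6206 in DEN22w and from 3115 to 4541 in DEN30w. In the same interaction 6 of 9 collagen genes and 4 of 12 macrophage markers were called lower, as was Trem2 (-1.16), 0 hepatocyte markers of 10 were called lower and 1 higher, and Alb had -0.48 (adjusted p = 0.103, edgeR). The part of these in the Apoa1 result was not tested. The rank correlation of the zone order with the UMIs of a spot was 0.11, -0.09, -0.34 and -0.13 in the 4 sections. Apoc3, with an interaction of -0.04, and Apoa5, with 0.22 (SE 0.12, adjusted p = 0.510, edgeR), were lower in central spots of both models.

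Macrophages take up lipoproteins and make Apoe. Spots with the highest share of UMIs from 12 macrophage markers, 10% of each section, were compared with the 50% of spots with the lowest share. In macrophage-rich spots 7 of the 10 members fell, where 8.11% of the 12008 genes tested were lower: Apoa5, Apoc3, Apoc2, Apob, Apoc1, Apoa2 and Apoa4. The members' median log2 fold change was -0.35 and that of all genes -0.024. The scaling factors moved fitted values by -0.19 relative to CPM, and with library totals alone 3 members were called, Apoa5, Apob and Apoc3.

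Apoa5 stood at 1764 CPM in macrophage-rich against 1898 in macrophage-poor spots of STAM16w, 1471 against 1832 in STAM20w, 1541 against 2249 in DEN22w and 1147 against 1746 in DEN30w. It was lower in all 4 sections, least in STAM16w, with a fitted log2 fold change of -0.58 (SE 0.10, adjusted p = 0.000604, edgeR). Apoc3 had log2 ratios of -0.09, -0.26, -0.30 and -0.33 (fitted -0.43, SE 0.09, adjusted p = 0.00306, edgeR), and Apob of -0.03, -0.24, -0.26 and -0.24 (fitted -0.38, SE 0.08, adjusted p = 0.00393, edgeR). STAM16w thus showed the smallest difference for each of these 3 genes.

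Apoe, the member that macrophages also make, stood at 15781 against 14928 CPM, 19063 against 18449.9, 23935 against 22784 and 21579.7 against 19588 in macrophage-rich against macrophage-poor spots. Its CPM was higher in the macrophage-rich spots of all 4 sections, by log2 ratios of 0.05 to 0.14, whereas its fitted log2 fold change was -0.11 (SE 0.09, adjusted p = 0.504, edgeR). The direction of Apoe thus turns with the scaling, and it was not called on either scale.

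Apoa4 was lower in CPM in 3 of 4 sections, with log2 ratios of -0.02, 0.04, -0.28 and -0.17, and Apoa2 likewise, with 0.0019, -0.16, -0.20 and -0.25. Without DEN22w the call was kept by 3 members, without DEN30w by 2 and without STAM20w by 3, whereas 9 were called without STAM16w. In the same order these fits called 1167, 826, 1266 and 2505 genes in either direction. Without DEN30w the adjusted p of Apob was 0.0617 and that of Apoc3 0.0602, and Apoc2 had 0.0567 without DEN22w and 0.0563 without STAM20w. Apoa2, Apoa4 and Apoc1 each lost the call when any 1 of these 3 sections was left out, with adjusted p between 0.0559 and 0.243. In macrophage-rich spots 9 of 10 hepatocyte markers, Alb among them (-0.39), and 11 of 12 portal markers were called lower, and all 9 collagen genes higher. Median UMIs per spot were 8469, 9333, 4772 and 5046 in macrophage-rich spots and 9857.5, 12589.5, 8444 and 12130.5 in macrophage-poor spots. Over the spots of DEN22w and DEN30w the level of Apoa2 had correlations of 0.56 and 0.60 with the log2 UMIs of a spot, and that of Apoe -0.26 and -0.11. With classes drawn within 5 bands of depth 4 members were called, and Apoa2, Apoa4 and Apoc1 had adjusted p of 0.121, 0.0699 and 0.0705 in edgeR's test. The part of the marker genes in the members' values was not tested.

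Several genes of lipoprotein uptake and remodelling rose in the same spots. The macrophage receptor Trem2 rose by 1.94 on the log2 scale, the phospholipid transfer protein Pltp by 1.09, the cholesterol exporter Abcg1 by 0.89, and Lpl by 0.77. Of 16 remodelling genes 3 rose and 4 fell (median -0.11), of 9 receptors 1 rose and 2 fell (median 0.09), and of 16 assembly genes 1 rose, Apobec1 (0.95), and 4 fell (median -0.21). Of 9 further apolipoproteins 1 rose and 6 fell (median -0.36), among them Apon (-0.61), and of 21 regulators 5 fell and 0 rose (median -0.24), among them Nr0b2 (-0.67) and Hnf4a (-0.30), a nuclear receptor of hepatocytes.

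In collagen-rich spots, drawn in the same way with 9 fibroblast and collagen genes, 6 of the 10 members fell, where 8.46% of 12016 genes were lower. Apoa5 stood at 1759 against 1900.3 CPM, 1464 against 1824, 1626 against 2222 and 1100.1 against 1777 in the 4 sections. It was lower in the collagen-rich spots of every section, with a fitted log2 fold change of -0.58 (SE 0.11, adjusted p = 0.00173, edgeR). Apoc3 (-0.44), Apob (-0.34), Apoc2 (-0.35), Apoc1 (-0.38) and Apoa2 (-0.39) had adjusted p between 0.0151 and 0.0461 in edgeR's test.

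With library totals alone Apoa5 was the only member called, as it also was without DEN22w, and without DEN30w none was called, with an adjusted p of 0.0563 for Apoa5. Apoa4 was divided, at 1717 against 1288 CPM in STAM16w and 2279 against 1929 in STAM20w, and at 723 against 808 in DEN22w and 660.0 against 677 in DEN30w. Collagen-rich spots were thus higher for Apoa4 in both STAM sections and lower in both DEN+CCl4 sections, but the fitted interaction of 0.43 (SE 0.23) had an adjusted p of 0.864 by edgeR. Apoe had log2 ratios of 0.16, 0.02, 0.15 and 0.20 and a fitted value of -0.05 (SE 0.13), a sign that turns with the scaling, which moved fitted values by -0.19. The members' median was -0.35 and that of all genes -0.029. Beside them, 6 of 10 hepatocyte markers and 11 of 12 portal markers were called lower, and 9 of 12 macrophage, 6 of 6 stellate, 4 of 4 erythroid and 4 of 5 tested bile duct markers higher; their part was not tested. Median UMIs per spot were 8058, 7526.5, 3723 and 4173 in collagen-rich and 9774.5, 12729, 8255 and 10831 in collagen-poor spots. With classes drawn within 5 bands of depth 3 members were called, and Apoa2, Apoc1 and Apoc2 had adjusted p of 0.117, 0.104 and 0.0662 in edgeR's test. Of the other lists, 6 of 9 further apolipoproteins, 3 of 16 assembly genes, 2 of 16 remodelling genes, 2 of 10 receptors and 4 of 21 regulators fell, with medians of -0.39, -0.19, -0.14, 0.03 and -0.24, and 0, 1, 2, 2 and 0 rose. Trem2 rose by 1.55, Lpl by 0.65 and Pltp by 0.61 on the log2 scale, and Apol9b (-0.69) and Lcat (-0.51) were among those that fell.

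**Figure D3:**
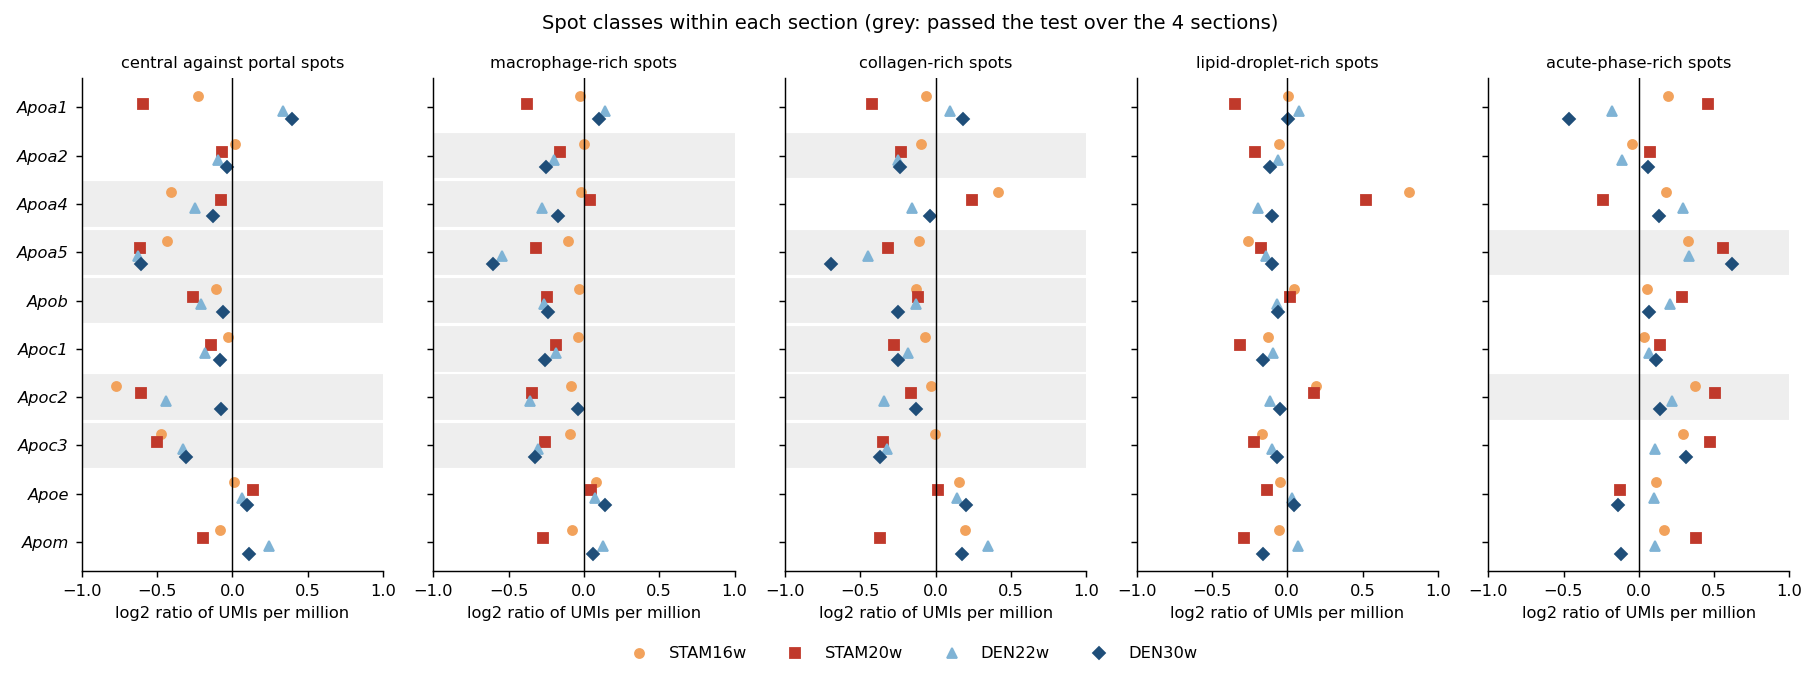
Log2 ratio of CPM (horizontal axes) of each member in central over portal spots and in spots rich over spots poor in macrophage, collagen, lipid droplet or acute-phase genes; each symbol is 1 section, and grey bands mark members called by edgeR over the 4 sections. Apoa5 is called in 4 of the 5 panels, and Apoa4 in lipid-droplet-rich spots lies at 0.81 and 0.52 in the STAM sections and below 0 in the DEN+CCl4 sections.

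Lipid droplets are the store from which hepatocytes draw triglyceride for secretion with Apob. In the 10% of spots richest in 6 lipid droplet genes, such as Plin2 and Cidec, no member was called over the 4 sections, where 1.89% of 12037 genes were; 1548 genes and 4 members had an unadjusted p under 0.05, and DESeq2 called 117 genes and 2 members. Apoa4 stood at 2091 against 1194 CPM in STAM16w and 2542 against 1771 in STAM20w, lipid-droplet-rich against lipid-droplet-poor spots. In DEN22w it stood at 712 against 816 and in DEN30w at 660.1 against 708 CPM. Apoa4 was therefore higher in the lipid-droplet-rich spots of both STAM sections, by log2 ratios of 0.81 and 0.52, and lower in those of both DEN+CCl4 sections, by -0.20 and -0.10. Median UMIs per spot were 8270, 9947, 5137 and 3744 in lipid-droplet-rich and 9981.5, 13268, 7179 and 9649.5 in lipid-droplet-poor spots. Over the spots of a section Apoa4 had correlations of 0.005, 0.17, 0.35 and 0.42 with the log2 UMIs of a spot. With classes drawn within 5 bands of depth 9 genes and 0 members were called, against 228 genes without bands. The part of depth in the directions of Apoa4 was not tested.

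The interaction with the model, a test added after seeing the data, was 0.73 for Apoa4 (SE 0.18, adjusted p = 0.0857, edgeR's quasi-likelihood test), where 0.183% of genes were called; 1 member, Apoa4, had an unadjusted p under 0.05 and DESeq2 called 0 members. With library totals alone it was 0.81 (adjusted p = 0.00314), and with DESeq2 the adjusted p was 0.830; over the alternatives it ran from 4.7e-13 without STAM20w to 0.969 without DEN30w, fits in which 1 model has 1 section that is assumed to vary like the other model. Apoc2 had log2 ratios of 0.19, 0.18, -0.12 and -0.05, with a fitted value over the 4 sections of -0.08 (SE 0.10, adjusted p = 0.780, edgeR), which was 0.053 with library totals alone. Apob, which packages the triglyceride, stood within 0.07 of 0 on the log2 scale in every section. The members' median was -0.22 and that of all genes -0.00052; 9 of 12 portal markers and 3 of 10 hepatocyte markers were called lower in these spots, and their part was not tested. Of the lists of other lipoprotein genes, 2 of 9 further apolipoproteins fell, Apol9a (-0.42) and Apon (-0.39), and 1 of 10 receptors rose, Trem2 (0.62), whereas 0 of 16 assembly genes, 0 of 16 remodelling genes and 0 of 21 regulators were called.

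Acute-phase proteins are made by hepatocytes in inflammation, and several of them travel on high-density lipoprotein. In the 10% of spots richest in 8 acute-phase genes, such as Saa1 and Orm1, Apoa5 and Apoc2 rose, 2 of the 10 members, where 1.41% of 12239 genes were higher. Apoa5 stood at 2149 against 1713 CPM, 2176 against 1478, 2404 against 1909.6 and 2032 against 1323, rich against poor spots. It was higher in acute-phase-rich spots of all 4 sections (fitted log2 fold change 0.60, SE 0.12, adjusted p = 0.0138, edgeR), and its adjusted p was 0.1 without DEN30w. Apoc2 had log2 ratios of 0.37, 0.51, 0.22 and 0.14 and a fitted value of 0.45 (SE 0.11, adjusted p = 0.04, edgeR), and it was called in no fit that left out a section, with adjusted p of 0.0551 to 0.138; with library totals alone it was 0.0821.

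Apoa1 had log2 ratios of 0.19, 0.46, -0.18 and -0.47 in acute-phase-rich spots, higher in STAM and lower in DEN+CCl4, and its interaction of 0.58 (SE 0.27) was not called. By edgeR's test 0% of genes were called in this interaction, where 423 genes and 0 members had an unadjusted p under 0.05 and DESeq2 called 0 genes. The members' median was 0.25 and that of all genes -0.0041, and the scaling factors moved fitted values by 0.14. All 12 portal markers were called higher and all 8 central markers lower in these spots. Of 10 hepatocyte markers 4 were called higher and 0 lower (median 0.42), and 6 of 12 macrophage markers and 3 of 9 collagen genes were called lower. The part of zonation and of these markers in the values of Apoa5 and Apoc2 was not tested. Among other lipoprotein genes, Apon (0.58), Sdc1 (0.61) and the regulator Srebf1 (0.51) rose and Pltp (-0.52), Lpl (-0.65) and Trem2 (-0.95) fell. These were 1 of 9 further apolipoproteins, 2 of 10 receptors, 1 of 21 regulators and 2 of 16 remodelling genes, and 0 of 16 assembly genes were called.

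The interactions of the other classes with the model, added after seeing the data, gave no member call by edgeR. In macrophage-rich and collagen-rich spots 0.583% and 0.15% of all genes were called, against 0 members, while 1 and 0 members had an unadjusted p under 0.05 and DESeq2 called 0 members. Apoa5 had the widest of these values in macrophage-rich spots, 0.44 (SE 0.17, adjusted p = 0.359, edgeR), with log2 ratios nearer 0 in the STAM sections (-0.11 and -0.32) than in the DEN+CCl4 sections (-0.55 and -0.61).

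STAM20w held 3 patches of spots, drawn by 5 genes each that earlier results of these sections had picked out and named here by 1 of them: a Cpe patch of 209 spots, a Cib3 patch of 303 spots and an H19 patch of 241 spots, beside 2080 other spots. Cpe encodes a peptide-processing enzyme, and H19 is a fetal RNA. No member was among these genes. The patches lie in 1 section, so their levels are a description with 95% Poisson intervals for counting error and no test.

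Apoa4 stood at 5950.1 CPM (5871 to 6029.5) in the H19 patch, 4053 (3963 to 4146) in the Cib3 patch, 1470.4 (1437 to 1504) in the Cpe patch and 1975 (1958 to 1991) in the other spots. It was 3.01-fold the level of the other spots in the H19 patch and 2.05-fold in the Cib3 patch, and lower, at 0.745-fold, in the Cpe patch. Apoc2 stood at 6669 CPM (6552 to 6787) in the Cib3 patch, 4409 (4342 to 4478) in the H19 patch, 1720.1 (1684 to 1756) in the Cpe patch and 1924 (1909 to 1940.3) in the other spots. Its order was the reverse of that of Apoa4 between the H19 and Cib3 patches, at 2.29-fold and 3.47-fold the other spots.

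Every member stood lower in the Cpe patch than in the other spots, at 0.477-fold for Apoa1, 0.443-fold for Apoa5, 0.524-fold for Apoc3, 0.657-fold for Apoa2, 0.814-fold for Apoe and up to 0.925-fold for Apob. In that patch 2 of the 10 members were at least 2-fold lower, where 5.51% of genes at 50 CPM or more were. In each of the Cib3 and H19 patches 2 members, Apoa4 and Apoc2, were at least 2-fold higher, where 2.26% and 3.52% of genes were. With a lower minimum for drawing a patch, 2 in place of 3, the counts were 1 of 10 in the Cpe patch and 1 of 10 in the Cib3 patch, where Apoa4 came to 1.99-fold. With a minimum of 5 the count in the Cpe patch was 3, with Apoc3 at 0.480-fold.

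Apob and Apoe did not share the height of Apoa4 and Apoc2, at 0.977-fold and 0.947-fold in the Cib3 patch and 0.727-fold and 0.784-fold in the H19 patch. Apoa2 stood at 0.821-fold and 0.586-fold in these patches and Apoc3 at 1.49-fold and 0.931-fold. Alb, the reference gene, stood at 1.24-fold in the Cib3 patch, 1.36-fold in the H19 patch and 0.561-fold in the Cpe patch. Spots of the Cpe patch had a median of 24634 UMIs, those of the Cib3 patch 5436, those of the H19 patch 14379 and the others 13103.5; the part of depth in these ratios was not tested. In the Cpe patch the summed hepatocyte markers stood at 33058 against 58037 CPM in the other spots, portal markers at 2034 against 8441 and central markers at 8549 against 4433. In the Cib3 and H19 patches hepatocyte markers stood at 65563 and 73000 CPM, portal markers at 7393 and 6291 and central markers at 2039 and 1013. Lipid droplet genes stood at 3002 and 3484 CPM there, against 2338 in the other spots. The part of these marker genes in the members' ratios was not tested.

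**Figure D4:**
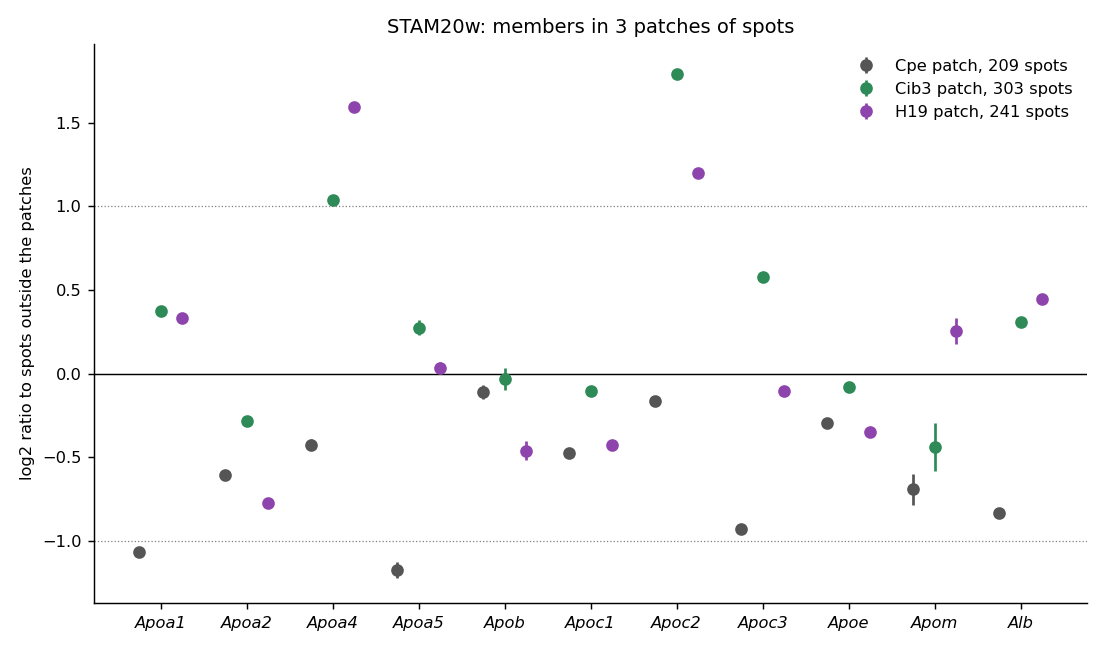
Log2 ratio (vertical axis) of each member and of Alb in the 3 patches of STAM20w over the 2080 spots outside them; points are ratios of CPM, bars are 95% counting intervals, and dotted lines mark 2-fold. Apoa4 and Apoc2 lie above the upper line in the Cib3 and H19 patches, and Apoa1 and Apoa5 lie below the lower line in the Cpe patch.

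Apoa4 also varied widely over single spots. Its 90th percentile over spots was 4.41, 4.88, 4.12 and 5.40 times its 10th percentile in the 4 sections, whereas for Apoe the ratio was 1.48, 1.66, 1.44 and 1.41. Median UMIs per spot lay between 5 and 25 for Apoa4 and between 143 and 218 for Apoe, so counting error widens the spread of Apoa4 more. At 5000 CPM or more of Apoa4 stood 19 spots of STAM16w, 292 of STAM20w, 0 of DEN22w, and 1 of DEN30w. Of these in STAM20w, 171 were among the 241 spots of the H19 patch (71.0%), 76 among the 303 of the Cib3 patch (25.1%), 0 in the Cpe patch and 45 among the 2080 others (2.16%). Apom, the sphingosine 1-phosphate carrier, had a UMI in 82.3%, 83.2%, 76.9% and 79.2% of spots, and each other member had one in 91.9% or more in every section.

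**Figure D5:**
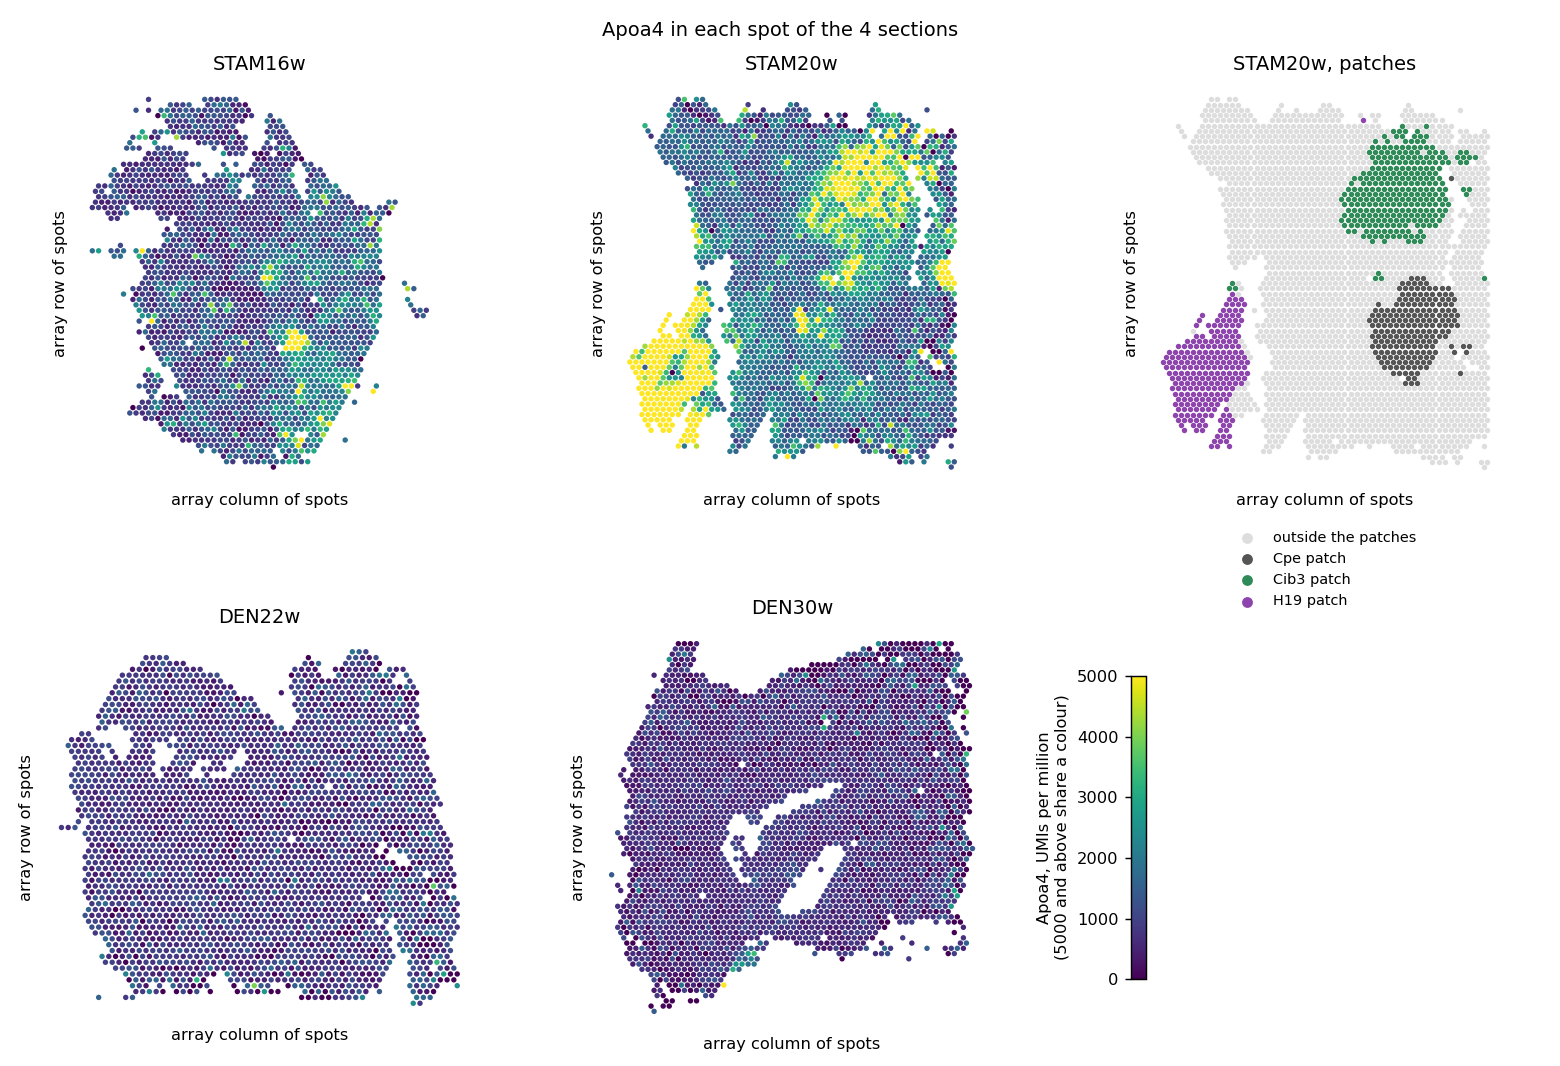
Apoa4 in every spot of the 4 sections, drawn at the spot's array position, with colour giving CPM up to 5000 (higher values share the top colour); the upper right panel shows the 3 patches of STAM20w. The brightest spots of STAM20w lie mainly in the H19 and Cib3 patches, and DEN22w has 0 spots at 5000 CPM or more.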

How the data were processed

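The authors deposited UMI counts per gene and spot for 4 Visium sections, whole numbers that were not normalized; per the submitters' processing notes they used Space Ranger 1.3.1, STAR and the build mm10; settings and annotation version are not given in the sources used here. Spots over tissue with at least 500 UMIs and 250 genes were kept. Counts were summed per section, or per section and spot class, and tested with edgeR 4.0.16 (R 4.3.3; quasi-likelihood test, TMM factors, filterByExpr, section as a block within sections, Benjamini-Hochberg adjustment over all genes tested at 0.05); genes that set a class were left out of its test. DESeq2 1.42.0, RLE factors, other filters and classes, and leaving out each section were alternatives. Library totals in place of TMM factors, and the interactions of the rich classes with the model, were chosen after seeing the data. The fits of the models, the zones and their interaction were run on simulated counts with planted changes larger than those fitted for the members. Those counts had a fixed spread and no section effect, and the rich classes were not simulated. Exact Poisson and binomial intervals at 95% cover counting error only. Ratios between times and patches are of CPM, without a test.

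The members and lists were chosen with earlier results of these data known; the patch genes come from such results. Named genes are the 10 members, at most 4 called genes a list and comparison by smallest p, the 3 genes outside the 10 that follow each member most closely over spots, and Alb. Doublets were not called, as a spot can hold several cells. Tissue images were not used here. Tables used Python 3.11.15, pandas 2.3.3 and scipy 1.17.1, and figures matplotlib 3.10.9.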

Additional observations from a re-analysis of the deposited data

Results flagged for a closer look

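Section STAM16w lay apart from the other 3 sections in 4 of the log2 ratios between spot classes, by a gap test that marks about 1 in 20 groups by chance. Apoa5 in central over portal spots was -0.43 there, against -0.61 to -0.62 elsewhere. Apob in macrophage-rich spots was -0.035, Apoa2 in collagen-rich spots -0.095 and Apoc3 in collagen-rich spots -0.0035, each nearer 0 than in the other sections. In DEN30w, Apob in collagen-rich spots was -0.25, farther from 0 than in the other 3 sections. Apoa1 differed between the models in its central over portal ratio, by a tested interaction of -0.65 on the log2 scale.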

How the results depend on the processing

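Counts of members called moved with the setting. Between the models 0 were called, and 1 with DESeq2 or without a filter on low counts. In zones 5 were called, 3 with library totals alone, 0 without the section block and 3 to 5 without a section; the zone by model interaction went from 1 to 0 with RLE factors, bands of depth, equal marker weights or the patches kept, and was 0 to 1 without a section. Macrophage-rich spots went from 7 to 4 with bands of depth or a wider class, 3 with library totals, 0 without the block and 2 to 9 without a section, and collagen-rich spots from 6 to 3 with bands of depth, 1 with library totals, 0 without the block and 0 to 6 without a section. Lipid-droplet-rich spots went from 0 to 2 with DESeq2, 3 without a filter and 0 to 1 without a section, and acute-phase-rich spots from 2 to 4 with DESeq2, 1 with library totals or the patches kept, 0 without the block and 0 to 1 without a section. Interactions with the model went from 0 to 3 in macrophage-rich spots with the patches kept (0 to 1 without a section), to 1 in collagen-rich spots without a section (0 to 1), and in lipid-droplet-rich spots to 1 with a wider class, without a filter or with library totals (0 to 2 without a section). At a patch minimum of 2, members past 2-fold were 1 in place of 2 in the Cpe and Cib3 patches, and at 5 they were 3 in the Cpe patch.

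Genes called moved too. Between the models they went from 63 to 1517 with DESeq2, 1872 without a filter, 149 and 221 in central and portal spots alone, 152 outside the patches, 14 with library totals, and 2 to 922 without a section. Zones went from 1593 to 789 with DESeq2, 956 with the patches kept, 0 without the block and 819 to 1772 without a section, and their interaction from 112 to 31 with DESeq2, 33 with bands of depth, 49 with equal weights, 74 with the patches kept, 253 with library totals, 376 without a filter, and 122 to 458 without a section. Macrophage-rich spots went from 1990 to 1090 with DESeq2, 1266 with the patches kept, 0 without the block and 826 to 2505 without a section, collagen-rich spots from 2076 to 1171, 1 without the block and 744 to 2180, lipid-droplet-rich spots from 228 to 117 with DESeq2, 9 with bands of depth, 141 with a wider class, 13 with the patches kept, 0 without the block, 402 with library totals and 481 without a filter, and acute-phase-rich spots from 351 to 591 with a wider class, 784 without a filter, 176 with the patches kept, 0 without the block and 92 to 573 without a section. In the interactions with the model, macrophage-rich spots went from 70 to between 9 (DESeq2) and 330 (patches kept), collagen-rich spots from 18 to between 0 (DESeq2) and 78 (without STAM16w), lipid-droplet-rich spots from 22 to between 1 (DESeq2) and 427 (without STAM16w), and acute-phase-rich spots from 0 to as many as 15 (without STAM16w). The causes were not tested.

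Of the members' log2 fold changes under the alternatives, 1280 stayed on their side of the threshold, 92 lost a call and 28 gained one. No called value changed sign, but uncalled values that did are counted among the 1280. Of the untested ratios 64 stayed within their interval and 56 moved. The models and the times could not be paired because each group has 1 section. Classes of spots were paired within a section by the section block. The number of sections, 4, limits the precision.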

Other observations

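Moran's I, a measure of how alike touching spots are, gave Apoe the ranks 5, 15, 1 and 17 in STAM16w, STAM20w, DEN22w and DEN30w, among 2363 to 2747 genes at 50 CPM or more. Apoa2 ranked 17, 1, 4 and 2, and Alb 6, 2, 2 and 1. Apob ranked 1958, 719, 80 and 682. Abundant genes carry less counting noise, which can raise their rank, so the ranks do not compare genes of different abundance.

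Over the spots of a section, Apoa4 and Apoc2 had Pearson correlations of 0.25, 0.47, 0.20 and 0.25 in the 4 sections. Apoa1 and Apoc3, neighbours on chromosome 9, had 0.23, 0.52, 0.05 and 0.12, and Apoa2 and Apoe had -0.15, 0.49, -0.22 and -0.06. Over pairs within the chromosome 9 cluster the medians were 0.19, 0.33, 0.10 and 0.15. Within the chromosome 7 cluster they were -0.03, 0.18, -0.04 and -0.01, and over all other pairs of members 0.04, 0.22, 0.16 and 0.19. Outside the 10 members, the genes whose levels followed a member most closely, among genes at 50 CPM or more in all 4 sections, were Serpina1c for Apoc3 (mean r over the 4 sections 0.386), Ttr for Apoa2 (0.362), Serpina1c for Apoc1 (0.320) and Apoa5 (0.303), Hsd17b13, a lipid droplet enzyme, for Apoc2 (0.260), Apof for Apob (0.239), Trf for Apoa4 (0.229), Fabp1, the fatty acid binding protein of the liver, for Apoa1 (0.219), Alb for Apoe (0.202) and Cox6b1 for Apom (0.197). These values share the spots, their depth and their mix of cells, and describe the sections only. Hsd17b13 was also among the portal markers by which spots were ordered into zones.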
